A study of Mus musculus with 28 samples.

Results

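MLg mouse lung fibroblasts were compared after co-culture with EO771 mouse breast cancer cells and without it, in 8 of the 28 RNA-seq libraries of the series. The libraries were 4 of MLg co-cultured with EO771 (R5-1, R6-1, R6-2 and R7-1) and 4 of MLg that were not co-cultured (R3-2, R5-2, R6-1 and R6-2). EO771 RNA remained in the co-cultured MLg libraries, so the genes described were chosen by how much of their signal that RNA could supply. A gene was kept where its mean level in EO771 alone was at most 4 times that in MLg alone, or where its level in MLg with EO771 was at least 4 times the sum of its MLg alone level and the largest amount that carry-over could bring. Of 16823 genes with enough counts to test, 15405 met this rule, of which 6 did so only by the second criterion, among them Rsad2, Cxcl10 and Gm43414. That criterion requires a rise of at least 4-fold, so the rise of these 6 genes follows from the choice.

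In the series, EO771 cells were grown in contact with MLg fibroblasts or with C2C12 myotubes, and each partner was sequenced on its own. All cell lines were labelled wild type and were grown in DMEM with 10% fetal bovine serum and antibiotics. C2C12 myotubes with EO771 (4 libraries) and alone (4 libraries) and EO771 alone (4 libraries) and with MLg (4 libraries) served for comparison here. MLg is a single line, neither the time of co-culture nor the way in which the partners were separated is given in the sources used here, and nothing says that replicates came from separate cultures, so p-values measure the spread between these libraries.

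Type I interferons are secreted proteins made by cells that sense foreign or misplaced nucleic acid. They bind the IFNAR receptor on the same or neighbouring cells, and the receptor's kinases activate STAT transcription factors, which with IRF9 enter the nucleus and bind the interferon-stimulated response element (ISRE) in the promoters of effector genes. Fibroblasts are a classical responding cell, and in tissue they also make the matrix, the proteases that cut it, chemokines and growth factors for epithelium. Those functions, and the sterol pathway that supplies their membranes, are described below in that order.

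The promoters of 5 genes whose level was raised in every co-cultured library are shown first because the results turn on interferon effectors, together with that of Itga2, the gene with the largest fall among called genes at 5 CPM or more whose groups did not overlap. Each run covers the 200 bases from 220 to 21 bases before the annotated start, written 5′ to 3′ on the gene's own strand, from RefSeq on GRCm38.p6. A motif match in the window was a condition for showing these 5 promoters, so finding a match in each follows from the choice. Capitals mark matches to the ISRE, spelled GAAANNGAAA and searched on both strands, and in Cxcl10 also a kB motif.
Ifit1: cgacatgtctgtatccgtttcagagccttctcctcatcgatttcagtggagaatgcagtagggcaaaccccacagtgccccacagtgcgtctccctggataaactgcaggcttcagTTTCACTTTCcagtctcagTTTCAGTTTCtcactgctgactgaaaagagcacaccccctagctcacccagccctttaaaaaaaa
Ifit3: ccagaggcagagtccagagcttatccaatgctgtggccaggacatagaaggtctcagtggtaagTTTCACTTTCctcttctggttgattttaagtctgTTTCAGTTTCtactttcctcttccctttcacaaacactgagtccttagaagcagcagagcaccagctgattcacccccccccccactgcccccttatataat
Isg15: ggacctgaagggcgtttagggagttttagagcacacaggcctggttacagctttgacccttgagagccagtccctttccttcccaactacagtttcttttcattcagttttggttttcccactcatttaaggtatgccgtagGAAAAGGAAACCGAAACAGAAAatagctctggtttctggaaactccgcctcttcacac
Rsad2: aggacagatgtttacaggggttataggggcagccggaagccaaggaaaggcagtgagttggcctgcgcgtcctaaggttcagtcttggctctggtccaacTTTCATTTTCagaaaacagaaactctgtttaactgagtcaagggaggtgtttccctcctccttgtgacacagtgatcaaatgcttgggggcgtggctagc
Cxcl10: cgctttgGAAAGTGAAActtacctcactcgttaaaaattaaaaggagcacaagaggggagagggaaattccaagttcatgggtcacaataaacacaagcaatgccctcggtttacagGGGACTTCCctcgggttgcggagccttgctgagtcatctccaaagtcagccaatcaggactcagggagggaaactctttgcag
Itga2: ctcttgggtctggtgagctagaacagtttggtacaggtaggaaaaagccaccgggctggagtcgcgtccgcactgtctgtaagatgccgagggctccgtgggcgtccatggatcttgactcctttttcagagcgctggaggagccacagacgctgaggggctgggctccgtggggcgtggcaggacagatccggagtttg

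The Ifit1 window (chr19:34640669-34640868, plus strand) held ISRE matches at 104 to 95 and at 85 to 76 bases before the start. The Ifit3 window (chr19:34583309-34583508, plus strand) held them at 156 to 147 and 122 to 113 bases. In Isg15 (chr4:156200839-156201038, minus strand) 3 overlapping matches ran from 78 to 57 bases before the start. Rsad2 (chr12:26456473-26456672, minus strand) had a single match at 120 to 111 bases, and Cxcl10 (chr5:92348910-92349109, minus strand) had an ISRE at 213 to 204 and a kB motif at 103 to 95 bases. The Itga2 window (chr13:114932121-114932320, minus strand) had no match to these motifs or to GAS, CArG and AP-1 motifs. An ISRE was present in 2.3% of all 32851 RefSeq promoter windows of this length. Of the 39 interferon effectors called higher, 28 had a RefSeq promoter, and 12 of those (42.86%) held an ISRE against 292 of 11219 tested genes with a promoter (2.6%). A GAS motif was in 6 of the 28 (21.43% against 5.85%) and an AP-1 motif in 5 (17.86% against 3.58%). None of the 28 held a kB or CArG motif (9.36% and 1.29% of tested genes). A match is a description of the letters and not evidence of binding.

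MLg alone libraries held 61734484 to 69688319 counted reads and MLg with EO771 libraries 33790602 to 57528088, within a range of 27612567 to 96491326 over the series. The summed level of 14 fibroblast markers was 26900 to 33800 CPM (counts scaled to a common library total) in MLg alone, 25300 to 28100 CPM in MLg with EO771 and 3140 to 4190 CPM in EO771 alone, and none of the 14 was called different between the MLg groups. Vim, at 3040 CPM against 2640 CPM in MLg alone, made up most of the EO771 alone sum. Thy1 was close to absent, with 13 counts in MLg alone and 0 with EO771, and was not tested. Macrophage, endothelial and myotube markers summed to at most 19.3, 1.36 and 7.16 CPM. Of the 5 macrophage markers, Cd68 was called higher, from 10.9 to 14.7 CPM with 11.2 CPM in EO771 alone. Adgre1 had no count in either MLg group. From 54 EO771-specific genes, the share of EO771 RNA in MLg with EO771 was 13.08% in R5-1, 6.033% in R6-1, 6.318% in R6-2 and 8.438% in R7-1, against at most 0.0744% in MLg alone. The 12 epithelial and EO771 markers summed to 19.4 to 21.3 CPM in MLg alone, 15.8 to 38.8 CPM in MLg with EO771 and 93.2 to 99.0 CPM in EO771 alone, with 2 called higher and 1 lower. Krt8, a simple epithelial keratin, made up most of the EO771 sum (93.3 CPM) and had 9.31 CPM in MLg with EO771 and 0.297 CPM in MLg alone, whereas Krt7, which was near absent from EO771 alone, fell from 19.5 to 13.3 CPM. At the highest share, carry-over alone could raise a gene at 4 times its MLg level by up to 0.48 on the log2 scale, and could lower a gene that EO771 lacks by 0.20. MLg alone R3-2 stood apart from its group, with a chi-square per degree of freedom of 91.35 to 120.79 against the other 3 libraries and of 14.93 to 26.9 among them. Counts of R5-1 and R6-1 with EO771 were all even numbers, so that 2 is the smallest count above 0 there. Whether each fragment was counted 2 times in them was not tested; CPM would be the same if every count of a library were halved.

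Genes were called at an adjusted p under 0.05 in edgeR's quasi-likelihood test with Benjamini-Hochberg adjustment over all 16823 genes. Of all genes tested, 1663 were called higher (9.89%) and 809 lower (4.81%) in MLg with EO771. Among the 15405 genes kept, 819 were higher (5.32%) and 809 lower (5.25%), and 844 genes called higher were set aside because of their EO771 level. Most changes were small. Of the genes kept, 193 were at least 2-fold higher and 64 at least 4-fold higher, 101 were at least 2-fold lower, and 441 of the 809 called lower fell by 0.5 or less on the log2 scale. Of the 64 genes at least 4-fold higher, 23 were interferon effectors from a list of 41. Every library with EO771 lay above every MLg alone library in 1883 genes (11.2% of those tested) and below in 1539 (9.15%).

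Carry-over was also removed by subtracting, from each co-cultured library, its EO771 share of the mean EO771 with MLg profile. In that fit 556 genes were higher (3.39% of 16379) and 225 lower (1.37%), and of the genes kept, 447 of the 819 higher and 215 of the 809 lower held their call. The share called higher was larger among genes with more EO771 expression: 20.9% of the 699 genes with 3 to 4 times their MLg level in EO771 were called higher, with a median log2 change of 0.27, and 32.7% of the 315 genes at 4 to 5 times, with a median of 0.37. Between 1 and 2 times the level, 4.1% of 3884 genes were called higher. The part of carry-over in these shares was not tested. The EO771 with MLg profile holds some MLg RNA in turn, with 73.4 CPM of Col1a1 against 1.99 CPM in EO771 alone. In the fit without R5-1 and R6-1, the libraries of even counts, 1153 genes were called in place of 2472. Of 17897 tested there, 897 were higher and 256 lower. The fit of all 16 host libraries called 1336, with 997 higher and 339 lower of 18647. Its spread is estimated over the C2C12 libraries as well. List counts given below for these 2 fits are to be read beside these totals. In bulk RNA, fewer cells that express a gene and less RNA per cell cannot be told apart.

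**Figure D1:**
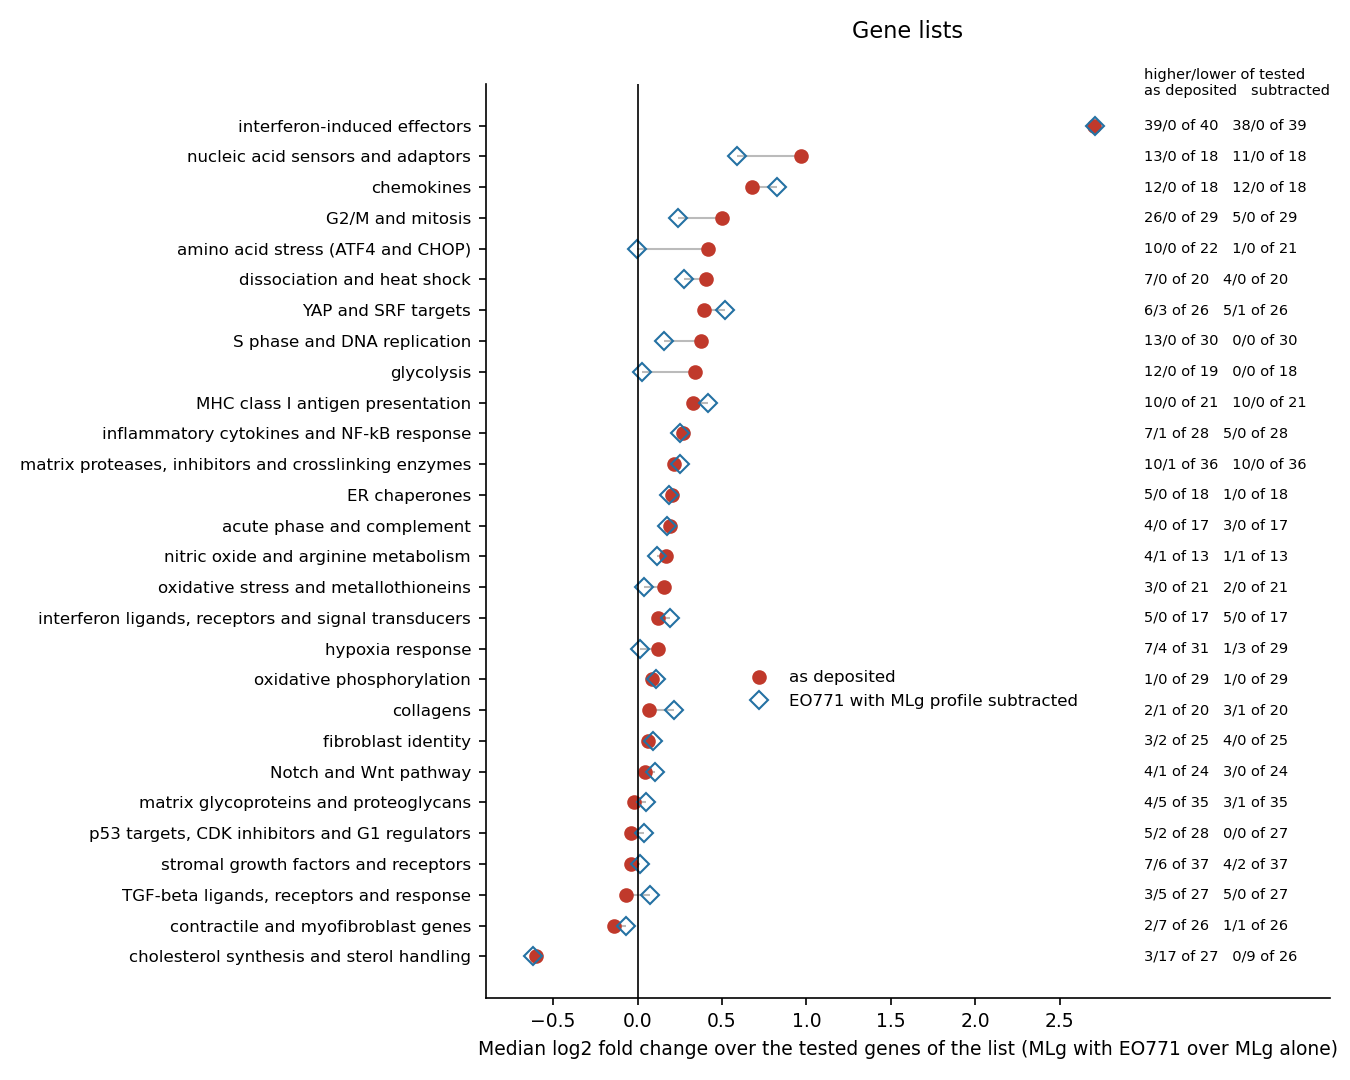
Median log2 fold change (x axis, MLg with EO771 over MLg alone) of 28 gene lists (y axis), as deposited (filled circles) and after subtraction of the EO771 with MLg profile (open diamonds), with the number of members called higher and lower of those tested at the right. Interferon-induced effectors lay at 2.704 and cholesterol genes at -0.60, and both medians moved little with the subtraction, whereas the glycolysis median went from 0.34 to 0.02.

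Interferon effectors, the proteins that block viral replication, were the group with the highest median. Of 40 tested, 39 were called higher and none lower, with a median log2 change of 2.704 where the median of all genes was close to 0 (-0.005). Of the 38 that met the carry-over rule, 37 were higher, with a median of 2.51. Rsad2, Oas1a and Oas3 met it only by the second criterion, so their rise followed from the rule. List counts here and below cover every member tested, also those that did not meet the rule. For this and every list below, the shares over all genes tested were 9.89% higher and 4.81% lower, and 3.39% and 1.37% after subtraction. All 39 had every co-cultured library above every MLg alone library. With carry-over subtracted, 38 of 39 tested were higher with a median of 2.71, and without R5-1 and R6-1 38 of 40 with a median of 2.59. The remaining gene, Ifit1bl1, a member of the Ifit1 family, had a log2 change of 1.55 with overlapping libraries (adjusted p = 0.0546).

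Ifit1, which binds foreign RNA and stops its translation, had 4.46, 3.63, 3.81 and 4.57 CPM in MLg alone (R3-2, R5-2, R6-1 and R6-2) and 217, 238, 218 and 122 CPM with EO771 (R5-1, R6-1, R6-2 and R7-1). All libraries with EO771 were higher, and R7-1 was the lowest of them. The means were 4.12 ± 0.467 and 199 ± 52.0 CPM (SD, n = 4), a 49.2-fold rise (log2 5.62 ± 0.22 SE, adjusted p = 3.09e-08). Ifit1 (ENSMUSG00000034459 in the files' annotation) lay on chromosome 19 at 34640871 to 34650009, on the same chromosome as Ifit3 at 34583531 to 34588731, with Ifit1bl1 and Ifit3b between them. Ifit3, of the same family, had 14.8 to 16.9 CPM alone and 288, 295, 270 and 147 CPM with EO771, a log2 change of 3.99. EO771 alone had 3.58 CPM of Ifit1 and 0.229 CPM of Ifit3, far below the co-cultured MLg level.

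Isg15, a ubiquitin-like protein that is coupled to other proteins, had 5.07, 3.52, 4.39 and 3.29 CPM alone and 150, 114, 118 and 56.1 CPM with EO771. The groups were far apart, and R7-1 was again lowest. Its mean rose 27.3-fold (log2 4.77 ± 0.28 SE, adjusted p = 4.83e-07). Rsad2, or viperin, an enzyme that makes a chain-terminating nucleotide, had at most 0.162 CPM alone and 15.6, 10.5, 11.6 and 4.94 CPM with EO771 (log2 6.56 ± 0.42 SE, adjusted p = 8.27e-07). EO771 with MLg itself had 14.0 CPM of Rsad2, of which the highest share could bring 1.83 CPM to an MLg library. Subtraction left the Rsad2 change at 6.55.

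Ifi44, an antiproliferative interferon-induced gene, was 1.22 to 1.64 CPM alone and 72.2, 76.3, 82.8 and 45.0 CPM with EO771 (47.9-fold). The GTPase Mx2 went from 2.27 ± 0.454 to 43.6 ± 9.99 CPM (SD, n = 4), and the GTPase Gbp5 from 0.398 to 6.64 CPM. Oas2, which makes the 2-5A messenger that activates RNase L, was 0.331 to 1.94 CPM alone and 18.1 to 36.1 CPM with EO771. Usp18, a protease that removes Isg15 and damps receptor signalling, rose 15.7-fold (log2 3.97 ± 0.25 SE). Ifit1bl2 reached 4.86 to 7.44 CPM from at most 0.421 CPM. Ifit and Oas genes form families of close copies, so reads shared between members could be assigned differently by another counting method.

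**Figure D2:**
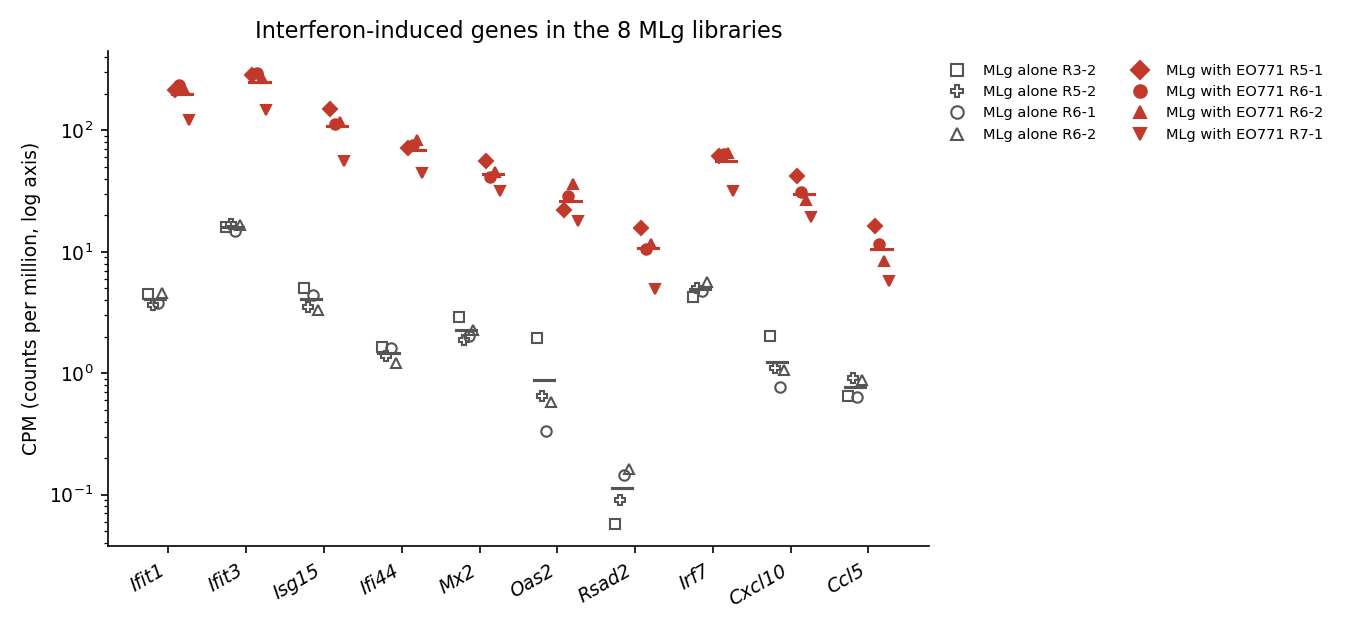
CPM on a log axis (y) of 10 interferon-related genes (x) in the 8 MLg libraries, with MLg alone as open grey and MLg with EO771 as filled red symbols, 1 symbol shape per library and a line at each group mean. For every gene drawn all red symbols lie above all grey ones, and R7-1, the inverted triangle, is the lowest red symbol for most, at 122 CPM for Ifit1.

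Library R7-1 was the lowest of the 4 co-cultured libraries in 37 of the 39 effectors called higher, and R5-1 and R6-2 were each lowest in 1. Its EO771 share, 8.438%, lay between those of the other libraries. Whether the EO771 share bears on these levels was not tested. Leaving out any single library left 39 or 40 effectors called higher, with a median log2 change of 2.66 to 2.80.

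The gene that encodes the ligand, Ifnb1, was not counted in any of the 4 MLg alone libraries, the deepest of which held 69688319 reads. With EO771 it had 12, 10, 22 and 4 counts (R5-1, R6-1, R6-2 and R7-1), or 0.295 ± 0.217 CPM (SD, n = 4). R6-2 was highest and R7-1 lowest. Against a floor of 3 counts over the MLg alone group, 0.0112 CPM, this was at least 26.3-fold higher. The counts were too low for the filter of the main test. Without the filter the edgeR test gave an adjusted p of 5.77e-05. In EO771 with MLg it had 14 counts in R6-1, 8 in R7-1 and 0 in the other 2 libraries, and EO771 alone had none. The interferon gamma gene Ifng had no count in MLg of either group, and the interferon alpha gene Ifna4 had 2 counts in R5-1 and 2 in R6-1, the smallest count above 0 in these libraries of even counts.

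Of 17 tested genes for interferon ligands, receptors and signal transducers, 5 were called higher and none lower, with a median log2 change of 0.12. Among the 5 were the transcription factors Irf7, Irf9 and Stat2 and the feedback inhibitor Socs3. Irf7, the factor that amplifies interferon gene expression, had 4.23 to 5.65 CPM alone and 61.1, 63.7, 65.6 and 31.8 CPM with EO771 (log2 3.53 ± 0.22 SE, adjusted p = 6.53e-07). Irf9 rose 2.46-fold and Stat2 1.89-fold. Socs3 rose from 44.6 to 61.2 CPM with overlapping libraries (adjusted p = 0.0133), and the call was lost without R5-1 and R6-1 together (0.164) and in the fit of all 16 host libraries (0.357).

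Of 18 tested genes for sensors of foreign nucleic acid and their adaptors, some of them induced by interferon, 13 were higher and none lower. Their median log2 change was 0.97. After subtraction 11 were higher, with a median of 0.59. Of the 16 that met the carry-over rule, 11 were higher, with a median of 0.79. Ifih1, the MDA5 sensor of long double-stranded RNA, had 4.84 to 6.95 CPM alone and 28.9, 27.9, 28.7 and 16.2 CPM with EO771 (4.36-fold, log2 2.13 ± 0.19 SE, adjusted p = 1.11e-05). Dhx58, the LGP2 regulator of that sensor, rose 8.73-fold and Zbp1, a sensor of Z-form nucleic acid, 5.21-fold. Ifi204, a sensor of DNA, rose from 19.1 to 57.1 CPM, and the ubiquitin ligase Trim25 from 41.9 to 102 CPM, with EO771 at 116 CPM of Trim25. Tlr2, a receptor for bacterial lipoproteins, was 3.24 to 7.71 CPM alone and 12.3 to 16.6 CPM with EO771. None of these 6 genes lost its call in any fit tried.

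Class I antigen presentation carries peptides of the cell's own proteins to its surface. Of 21 genes tested 10 were higher and none lower, with a median log2 change of 0.33, and 10 were higher after subtraction. Without R3-2 of MLg alone, 17 were higher with a median of 0.58, leaving out any other single library left 8 to 10, and without R5-1 and R6-1, or with all 16 host libraries, 5 were called. H2-T23, the nonclassical Qa-1 molecule, had 45.0, 35.6, 36.3 and 36.0 CPM alone and 73.4, 83.3, 83.2 and 55.1 CPM with EO771. The lowest co-cultured library lay above the highest MLg alone library, R3-2 (log2 0.98 ± 0.14 SE, adjusted p = 0.000548). The immunoproteasome subunit Psmb10 rose 1.64-fold, and Psmb9, another subunit, from 14.2 to 22.4 CPM. The peptide transporter Tap1 rose 1.58-fold, with R3-2 again the highest library alone at 43.3 CPM. Tap1 and Psmb9 lost their calls without the 2 libraries of even counts (adjusted p = 0.12 and 0.0586) and in the fit of all 16 host libraries (0.209 and 0.265). Cd274, the checkpoint ligand PD-L1, rose from 2.07 ± 0.206 to 5.03 ± 0.302 CPM (SD, n = 4), with EO771 alone at 5.12 CPM.

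The classical heavy chain H2-K1 was not called (log2 0.11, adjusted p = 0.824). It had 285 CPM in R3-2 and 116, 133 and 119 CPM in the other MLg alone libraries, and 151, 169, 160 and 215 CPM with EO771. Without R3-2 its log2 change was 0.54 and it was called (adjusted p = 0.00463). The light chain B2m went from 1454 to 1798 CPM (log2 0.33, adjusted p = 0.0388), and left the called genes without R5-2, R6-1 or R6-2 alone or without R6-1, R6-2 or R7-1 with EO771, at adjusted p up to 0.123, without R5-1 and R6-1 together (0.111) and with all 16 hosts (0.164).

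Chemokines, the attractants for leukocytes, were higher in 12 of 18 genes tested and lower in none, with a median log2 change of 0.68, and in 12 of 18 with a median of 0.82 after subtraction. Among the 17 that met the carry-over rule, 11 were higher, with a median of 0.66. Cxcl10 met it only by the second criterion, so its rise followed from the rule. Cxcl10, which attracts T cells through CXCR3, had 2.02, 1.10, 0.763 and 1.05 CPM alone and 42.0, 31.1, 26.8 and 19.3 CPM with EO771. Even R7-1 was far above the highest MLg alone library. Its mean rose 24.4-fold (log2 4.61 ± 0.31 SE, adjusted p = 1.44e-06), where EO771 with MLg had 12.6 CPM and could bring at most 1.65 CPM. Ccl5, which attracts T cells and monocytes, had 0.633 to 0.907 CPM alone and 16.2, 11.7, 8.37 and 5.73 CPM with EO771 (log2 3.80 ± 0.31 SE). Ccl11, the eosinophil attractant eotaxin, was absent from EO771 alone and rose from 4.00 to 12.1 CPM. The neutrophil attractants Cxcl1 and Cxcl5 rose 2.22-fold and 1.81-fold, Cxcl1 with 134 CPM in EO771 alone.

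Ccl2, the attractant of monocytes, was the most abundant chemokine named by count, at 747, 347, 465 and 429 CPM alone and 1263, 845, 859 and 887 CPM with EO771. R3-2 was the highest library alone and R5-1 the highest with EO771, and the groups did not overlap. The rise was 1.97-fold (log2 0.98 ± 0.21 SE, adjusted p = 0.00955), and it lost its call without the 2 libraries of even counts (0.0963).

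On the NF-kB and cytokine list, 7 of 28 were higher and 1 lower, where 9.89% and 4.81% of all genes were, with a median log2 change of 0.27. Without R3-2 there were 12 and 2, and without R5-1 and R6-1 3 and 0. The inhibitor-like factor Nfkbiz, which steers NF-kB to secondary targets, rose from 32.7 ± 3.495 to 69.9 ± 14.3 CPM (SD, n = 4), with EO771 alone at 105 CPM. Tnfaip2 rose 1.72-fold and the costimulatory receptor Tnfrsf9 1.59-fold, and the mitochondrial dismutase Sod2 rose 1.36-fold. Tnfrsf9 and Sod2 were not called without R5-1 and R6-1 (adjusted p = 0.0611 and 0.0929), and Tnfrsf9 also not with all 16 hosts (0.492). The cytokine gene Il18 fell from 7.27 to 4.13 CPM, a call lost after subtraction (adjusted p = 0.0636), without R5-1 and R6-1 (0.0708) and with all 16 hosts (0.377). Il6, the inflammatory cytokine, had 0.345 to 0.545 CPM alone and 0.417 to 1.18 CPM with EO771 and was not called (adjusted p = 0.351), nor was Lif (adjusted p = 0.866). Among 17 acute phase and complement genes 4 were higher and none lower, where 9.89% and 4.81% of all genes were. Without R5-1 and R6-1, 1 was higher. Saa3, a serum amyloid, had 2.04, 4.16, 2.42 and 2.62 CPM alone and 13.6, 10.0, 12.0 and 3.40 CPM with EO771, so that R7-1 overlapped MLg alone (log2 1.82 ± 0.36 SE, adjusted p = 0.00544), and it was not called without R5-1 and R6-1 (0.0836). Complement C3 was 1938 to 3821 CPM alone and 2468 to 2837 CPM with EO771 and was not called (adjusted p = 0.932).

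Among genes of the Notch and Wnt pathways, in which contact with a neighbouring cell or a secreted ligand sets a nuclear programme, 4 of 24 were higher and 1 lower, or 3 and 0 after subtraction. The shares of all genes were 9.89% and 4.81%, and 3.39% and 1.37% after subtraction. Hes1, a repressor that is the standard Notch target, had 2.14, 3.76, 2.02 and 2.14 CPM alone and 20.1, 10.1, 9.44 and 10.9 CPM with EO771. R5-1 was the highest, and all co-cultured libraries lay above MLg alone. The mean rose 5.09-fold (log2 2.35 ± 0.28 SE, adjusted p = 0.000122), to a level above the 1.47 CPM of EO771 alone. The receptor gene Notch1 had 17.5, 15.1, 11.5 and 11.7 CPM alone and 23.3, 25.9, 32.7 and 21.7 CPM with EO771 (1.89-fold, adjusted p = 0.00293). Notch2, the more abundant receptor gene by count, fell from 227 to 185 CPM, a call lost after subtraction (0.0637), without any 1 of R5-2, R6-1 and R6-2 alone or of R5-1, R6-1 and R7-1 with EO771 (up to 0.0943), without R5-1 and R6-1 together (0.208), with all 16 hosts (0.137) and in the R6 libraries only. Dkk2, a secreted Wnt antagonist, rose from 3.08 to 6.28 CPM, at adjusted p = 0.0177 with all libraries and 0.0505 without R6-2 of MLg alone. Other Notch targets were near the limit of counting: Hey1 had 52 counts over the 4 MLg alone libraries and 0.0644 CPM with EO771, and Heyl had 2 counts alone and none with EO771.

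**Figure D3:**
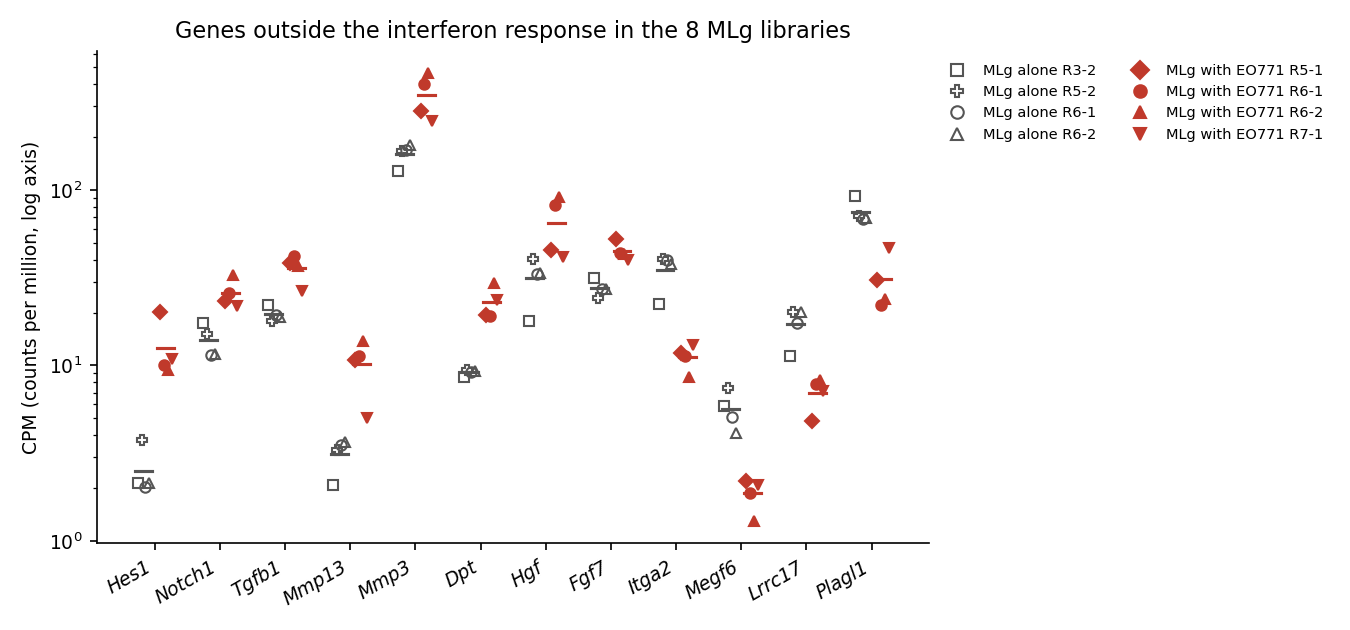
CPM on a log axis (y) of 12 genes outside the interferon response (x) in the 8 MLg libraries, with MLg alone as open grey and MLg with EO771 as filled red symbols, 1 shape per library and a line at each group mean. Red symbols lie above grey ones for Hes1 to Fgf7 and below for Itga2, Megf6, Lrrc17 and Plagl1, with R3-2 (open square) the lowest grey symbol for Itga2 at 22.5 CPM.

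The TGF-beta pathway drives fibroblasts towards contractile, matrix-producing myofibroblasts. Its ligand gene Tgfb1 had 22.2, 17.8, 19.5 and 19.0 CPM alone and 38.5, 42.0, 37.0 and 26.7 CPM with EO771, with no overlap (log2 0.90 ± 0.14 SE, adjusted p = 0.00094). EO771 with MLg had 39.6 CPM, and subtraction left the change at 0.91. Of the 27 listed genes tested, 3 were higher and 5 lower with a median of -0.07, where 9.89% and 4.81% of all genes were. After subtraction 5 were higher and none lower. Without R5-1 and R6-1 there were 1 and 4, and with all 16 hosts 1 and 1. The receptor gene Tgfbr2 went from 270 to 327 CPM and Tgfbr3 from 222 to 280 CPM. Both calls were lost without the 2 libraries of even counts (adjusted p = 0.121 and 0.0736), and with all 16 hosts (0.266 and 0.3). Tgfbr2 was also not called with library totals only (0.0519), without any MLg alone library or without R6-1 or R6-2 with EO771, up to 0.132, nor Tgfbr3 without R5-2 or R6-2 of MLg alone (0.064 and 0.0569). The response gene Ccn2 had a log2 change of -0.52 and was not called (adjusted p = 0.223).

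Contractile and myofibroblast genes showed 2 higher and 7 lower of 26, where 9.89% and 4.81% of all genes were. There were 1 and 1 after subtraction, where 3.39% and 1.37% of all genes were. Without R5-1 and R6-1 there were 0 and 2, where 897 and 256 of all 17897 genes tested were. Acta2, the smooth muscle actin of myofibroblasts, had 494, 445, 488 and 483 CPM alone and 327, 340, 279 and 425 CPM with EO771, with no overlap (log2 -0.46 ± 0.11 SE, adjusted p = 0.0145). After subtraction its change was -0.31 (adjusted p = 0.152), and it was not called without R5-1 and R6-1 (0.106) or with all 16 hosts (0.155). The myosin light chain gene Myl9 fell from 109 to 73.2 CPM and the cadherin gene Cdh2 from 100.4 to 68.0 CPM, and both calls were lost after subtraction (0.0629 and 0.0938), that of Myl9 also with all 16 hosts (0.207). Tagln, another smooth muscle marker, was at 0.873 and 0.887 CPM and not called (adjusted p = 0.919). Postn, a matrix protein of activated fibroblasts, went from 14.2 to 21.1 CPM with R7-1 at 14.5 CPM inside the MLg alone range (adjusted p = 0.0395). It lost its call without R5-2, R6-1 or R6-2 of MLg alone or R5-1, R6-1 or R6-2 with EO771, up to 0.111, without R5-1 and R6-1 together (0.241) and with all 16 hosts (0.424). Among YAP and SRF targets 6 of 26 were higher and 3 lower, against 9.89% and 4.81% of all genes. Of the 22 that met the carry-over rule, 3 were higher and 3 lower. Without R5-1 and R6-1 there were 2 and 0 among the 26. The immediate early genes Egr1 and Jun were on that list, and rose 1.74-fold and 2.30-fold with overlapping libraries. Neither was called without the 2 libraries of even counts (adjusted p = 0.214 and 0.178), and Egr1 was not called without R6-1 or R6-2 of MLg alone (0.059 and 0.0607) or R5-1 with EO771 (0.0561), or with all 16 hosts (0.158). On the list of genes that respond to cell dissociation and heat shock, 7 of 20 were higher and none lower, with a median of 0.41. The shares of all genes were 9.89% and 4.81%. Without R5-1 and R6-1, 3 of the 20 were higher. Whether handling of the cells bears on these levels was not tested.

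Collagen genes encode the main structural proteins of the matrix. Of 20 tested, 2 were higher and 1 lower, a share close to the 9.89% and 4.81% of all genes tested, with a median of 0.07, or 3 and 1 after subtraction and 5 and 3 without R3-2. Col1a1 had 6407, 6625, 5447 and 5434 CPM alone and 4792, 4897, 4839 and 4890 CPM with EO771, below every MLg alone library, but was not called (log2 -0.28 ± 0.09 SE, adjusted p = 0.0671). With library totals alone and with DESeq2 it was called lower (adjusted p = 0.0416 and 0.0259), as it was without the low-count filter, and with the EO771 with MLg or the EO771 alone profile subtracted its adjusted p was 0.494 and 0.511. Col3a1 (log2 0.06, adjusted p = 0.884) and the fibronectin gene Fn1 (log2 0.05, adjusted p = 0.787) were not called. Col8a1, a short-chain network collagen, had 40.3, 27.4, 26.8 and 26.7 CPM alone and 12.5, 15.3, 11.6 and 19.2 CPM with EO771 (log2 -1.02 ± 0.18 SE, adjusted p = 0.00209), and was not called in the fit of all 16 host libraries (0.0887). Col5a3 rose from 14.3 to 22.5 CPM with 38.6 CPM in EO771 alone, and Col4a1, of basement membrane, from 820 to 996 CPM (adjusted p = 0.0493), a call lost without R5-2, R6-1 or R6-2 of MLg alone or R5-1, R6-1 or R6-2 with EO771, up to 0.153, and in 6 other fits, among them library totals only (0.0524).

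In the matrix glycoproteins, 4 of 35 were higher and 5 lower, where 9.89% and 4.81% of all genes were. There were 3 and 1 after subtraction and 1 and 3 without R5-1 and R6-1. The basement membrane linkers moved in opposite directions: Nid1 had 621 to 720.0 CPM alone and 859, 1144, 1100.0 and 828 CPM with EO771, and Nid2 had 340 to 483 CPM alone and 238, 266, 258 and 318 CPM with EO771. Neither gene's groups overlapped (log2 0.60 ± 0.12 SE, adjusted p = 0.00573 for Nid1; log2 -0.57 ± 0.11 SE, adjusted p = 0.0039 for Nid2). EO771 alone had 578 CPM of Nid1 and 0.0321 CPM of Nid2, and both were still called after subtraction (0.0165 and 0.0429), Nid2 not without the libraries of even counts (0.0553) or with all 16 hosts (0.0684). The elastic fibre gene Fbln5 and the collagen-binding proteoglycan gene Fmod fell by 0.45 and 0.72 on the log2 scale, and both calls were lost after subtraction (0.142 and 0.0594) and with all 16 hosts (0.392 and 0.693), that of Fmod also without R5-1 and R6-1 (0.0876).

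Of 36 genes for enzymes that cut or crosslink matrix and their inhibitors, 10 were higher and 1 lower, with a median of 0.22. The shares of all genes were 9.89% and 4.81%. There were 10 and none after subtraction, where 3.39% and 1.37% of all genes were. With all 16 hosts 3 were higher. The collagenase gene Mmp13 had 2.08, 3.30, 3.54 and 3.66 CPM alone and 10.7, 11.3, 13.8 and 5.04 CPM with EO771 (3.32-fold, log2 1.73 ± 0.28 SE, adjusted p = 0.00135). Mmp3, or stromelysin, had 129 to 181 CPM alone and 283, 403, 464 and 248 CPM with EO771 (2.22-fold, adjusted p = 0.00111), lost only in the fit of all 16 host libraries (0.3). Mmp2, a gelatinase that EO771 alone hardly expressed (4.30 CPM), rose from 1145 ± 137 to 1715 ± 259 CPM (SD, n = 4). The elastin crosslinker gene Loxl1 rose 1.41-fold, with its call lost without R6-1 or R6-2 of MLg alone (adjusted p = 0.0575 and 0.0621), without R5-1 and R6-1 with EO771 (0.189) and with all 16 hosts (0.227). The collagen prolyl hydroxylase gene P4ha3 fell from 55.4 to 37.8 CPM, which was not called after subtraction (0.0935), without R5-1 and R6-1 (0.0897) or with all 16 hosts (0.291). Lox, the related crosslinker of collagen, was 350, 828, 809 and 746 CPM alone and 464, 468, 450 and 404 CPM with EO771. It was not called with R3-2 (adjusted p = 0.0751) and was called lower without it (log2 -0.79, adjusted p = 4.31e-05), with DESeq2 (0.0167) and without the low-count filter.

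Of 25 fibroblast identity genes 3 were higher and 2 lower, or 4 and 0 after subtraction, with a median of 0.06. The shares of all genes tested were 9.89% and 4.81%, and 3.39% and 1.37% after subtraction. Dpt, a matrix protein of universal fibroblasts, had 8.64, 9.42, 9.21 and 9.30 CPM alone and 19.4, 19.1, 29.4 and 23.8 CPM with EO771 (2.55-fold, log2 1.35 ± 0.13 SE, adjusted p = 2.75e-05). Ly6a, the surface protein Sca-1, rose from 38.6 ± 3.20 to 86.6 ± 16.9 CPM (SD, n = 4), with no overlap. Dpt lost its call in the fit of all 16 host libraries (0.0943), where its log2 change was 1.31. Pdgfra, the receptor that marks fibroblasts, was 1445 to 1548 CPM alone and 1469 to 1708 CPM with EO771, not called with all counts (adjusted p = 0.255) and called higher after subtraction (log2 0.28, adjusted p = 0.0442). Pdpn was not called (adjusted p = 0.073) but was without R7-1 (0.0353), with DESeq2 (0.0207) and without the low-count filter, and Fap stayed under 1 CPM in every library.

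Growth factors and receptors of the stroma went both ways, with 7 of 37 higher and 6 lower, where 9.89% and 4.81% of all genes were. There were 4 and 2 after subtraction, and 4 and 1 without R5-1 and R6-1. Fgf7, the keratinocyte growth factor, had 31.3, 24.4, 27.4 and 27.3 CPM alone and 52.6, 44.0, 43.1 and 40.1 CPM with EO771 (1.66-fold, log2 0.73 ± 0.11 SE, adjusted p = 0.000771). Fgf10, which guides lung epithelium, rose from 48.4 to 62.9 CPM, a call lost with all 16 hosts (0.449). Hgf, the ligand of MET, had 18.0, 40.7, 33.2 and 33.9 CPM alone and 45.7, 82.1, 91.6 and 41.4 CPM with EO771, barely apart (log2 1.09 ± 0.28 SE, adjusted p = 0.0203), and lost its call without R6-1 of MLg alone (0.0524) or R6-1 or R6-2 with EO771 (0.0674 and 0.0544), or without both libraries of even counts (0.0829). Igfbp4, a binding protein that holds IGF back, rose from 495 to 699 CPM, which was not called without R5-1 and R6-1 (0.0723) or with all 16 hosts (0.295). Igf1 itself was 25.4, 51.4, 48.0 and 45.2 CPM alone and 22.5 to 26.9 CPM with EO771 (log2 -0.77), overlapping only at R3-2, and was not called after subtraction (0.063) or without R5-1 and R6-1 (0.0902). The receptor gene Fgfr2 fell from 191 ± 10.3 to 132 ± 12.5 CPM (SD, n = 4), and its call held after subtraction (0.0296) but not with all 16 hosts (0.192).

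Among called genes at 5 CPM or more whose groups did not overlap, the largest fall was that of Itga2, the collagen-binding integrin alpha 2 subunit whose promoter is printed above. It had 22.5, 40.3, 39.8 and 37.8 CPM alone and 11.8, 11.3, 8.63 and 13.0 CPM with EO771. R3-2 was the lowest library alone and still above every co-cultured one. Mean levels were 35.1 ± 8.49 and 11.2 ± 1.84 CPM (SD, n = 4). The log2 change was -1.62 ± 0.17 SE (adjusted p = 5.62e-05), and -1.49 after subtraction. Megf6, a gene of EGF repeats, fell from 5.63 to 1.86 CPM and Lrrc17, a leucine-rich repeat gene, from 17.3 to 7.00 CPM. Plagl1, an imprinted zinc-finger gene, was 92.1, 71.1, 68.7 and 69.5 CPM alone and 30.8, 22.1, 23.8 and 46.9 CPM with EO771 (log2 -1.27 ± 0.20 SE, adjusted p = 0.00103). The receptor gene Tnfrsf19 fell from 6.202 to 2.97 CPM. Megf6 and Tnfrsf19 were not called in the fit of all 16 hosts (0.175 and 0.464), Tnfrsf19 also not without R5-1 and R6-1 (0.0544), while Itga2, Lrrc17 and Plagl1 were called in every fit tried.

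By the same criteria the rise with the highest fitted value was that of Gm43414, a gene model of unknown role on chromosome 3 at 37708021 to 37711208. It had no count in any MLg alone library and 3.97, 6.15, 6.99 and 5.36 CPM with EO771, at least 500-fold higher than the floor of 3 counts over the group. EO771 alone had 1.61 CPM and EO771 with MLg 2.39 CPM, so that the highest EO771 share could bring 0.313 CPM.

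Cholesterol synthesis supplies membranes and is switched on when cells run short of sterol. Of 27 genes tested, 17 were lower and 3 higher, with a median log2 change of -0.60, and 9 were lower and none higher of 26 after subtraction, with a median of -0.62. The 3 higher, among them the sterol-sensing receptor gene Nr1h3 and the hydroxylase gene Ch25h, were set aside for their EO771 level. Tm7sf2, a sterol reductase, had 63.9, 36.9, 31.5 and 29.4 CPM alone and 15.3, 19.5, 16.4 and 19.9 CPM with EO771 (log2 -1.17 ± 0.22 SE, adjusted p = 0.00389). Hmgcs1, which makes HMG-CoA, had 271, 149, 175 and 177 CPM alone and 116, 89.6, 91.5 and 108 CPM with EO771 (log2 -0.91 ± 0.17 SE, adjusted p = 0.00301). In both genes R3-2 was well above the rest of its group, and the other 3 libraries still lay above every co-cultured one. Lss, or lanosterol synthase, went from 179 ± 67.8 to 95.4 ± 13.5 CPM (SD, n = 4), and Fdps, which makes farnesyl diphosphate, from 29.4 to 13.8 CPM.

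The median and the number of sterol calls varied with the libraries in the fit. Without R3-2, 16 genes were lower and the median was -0.34. Without a single co-cultured library the number lower went down to 7 (without R5-1), and without R5-1 and R6-1 together it was 4, with a median of -0.57. With all 16 hosts 8 were lower. Over all genes, lower calls also fell, from 809 to 608 without R5-1, 256 without R5-1 and R6-1, and 339 with all 16 hosts. Without R5-1 and R6-1, Tm7sf2 and Lss were not called (adjusted p = 0.0554 and 0.112). Fdps also lost its call without R5-1, R6-1 or R6-2 (0.0509, 0.0676 and 0.0592), without R5-1 and R6-1 together (0.175) and after subtraction (0.0607). Hmgcs1 was called in every fit tried.

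**Figure D4:**
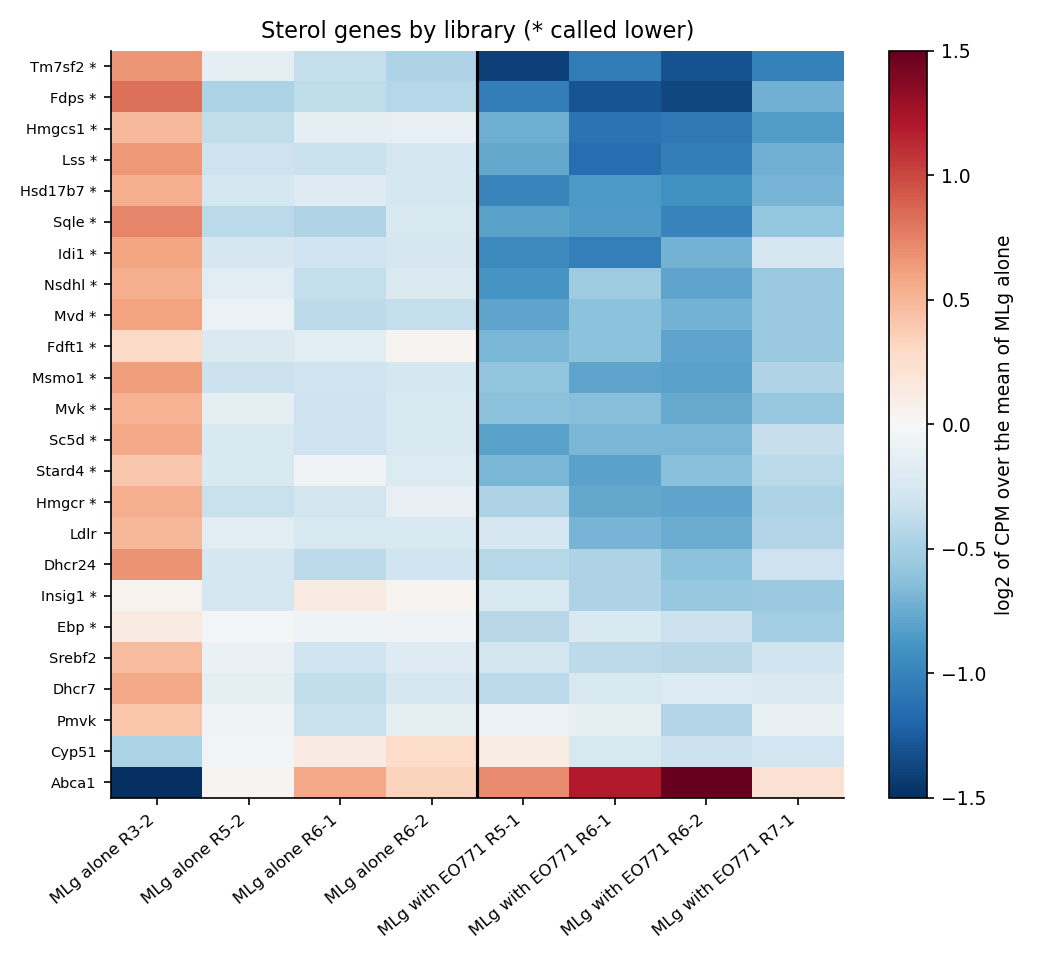
Heat map of 24 sterol genes that met the carry-over rule (rows) in the 8 MLg libraries (columns), with the colour giving log2 of CPM over the MLg alone mean and an asterisk marking the 17 genes called lower. Column R3-2 is the only one that is mostly red, and the 4 co-cultured columns are blue for most genes, from -1.40 to -1.02 for Tm7sf2.

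Hypoxia genes were of interest because the series names hypoxia in its title. Of 31 tested, 7 were higher and 4 lower with a median log2 change of 0.12, where 9.89% and 4.81% of all genes were. Of the 25 that met the carry-over rule, 2 were higher and 4 lower, with a median of 0.06. Among all genes kept by that rule, 5.32% were higher and 5.25% lower. After subtraction 1 was higher and 3 lower of 29, against 3.39% and 1.37% of all genes. Without R5-1 and R6-1 there were 4 and 2, and with all 16 hosts 3 and 0. Pdk1, which diverts pyruvate from the mitochondrion, fell from 49.0 to 36.3 CPM (log2 -0.41, adjusted p = 0.0124), and its call held after subtraction (0.0177) but not without the libraries of even counts (0.0585) or with all 16 hosts (0.16). Adm and Ndrg1 fell 1.51-fold and 1.41-fold, calls lost after subtraction (0.0564 and 0.0576) and with all 16 hosts (0.548 and 0.342). The glucose transporter gene Slc2a1 rose 1.36-fold with 169.5 CPM in EO771 alone and was not called after subtraction (0.42), without R5-1 and R6-1 (0.277), with all 16 hosts (0.28), or without R5-2, R6-1 or R6-2 of MLg alone or R5-1 or R6-1 with EO771 (up to 0.0859). Vegfa (log2 0.07, adjusted p = 0.695), Bnip3 (log2 0.12, adjusted p = 0.543) and Hmox1 (log2 -0.19, adjusted p = 0.263) were not called, though Hmox1 was called lower without R5-1 and R6-1 (0.0276). The gene of the oxygen-regulated transcription factor subunit, Hif1a, was lower in every co-cultured library, at 142 to 157 CPM against 168 to 182 CPM, but not called (adjusted p = 0.0902), and called lower after subtraction (log2 -0.31, adjusted p = 0.0229).

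Most calls of glycolysis and proliferation genes were lost once EO771 RNA was subtracted. Glycolysis genes were higher in 12 of 19 and in none of 18 after subtraction, and 4 were higher without R5-1 and R6-1. Gapdh, which EO771 alone had at 5189 CPM, rose from 415 to 725 CPM (log2 0.83) and had a change of -0.19 after subtraction. S phase genes were higher in 13 of 30, in 23 without R3-2, in 4 without R6-2 of MLg alone, in 2 without R5-1 and R6-1 with EO771 and in none after subtraction, and the nucleotide reductase gene Rrm2 went from a log2 change of 1.06 to 0.07. G2/M genes were higher in 26 of 29, of which 15 exceeded the EO771 limit, and 5 were higher after subtraction with a median of 0.24, or 3 with all 16 hosts. Ube2c, which drives mitotic exit, remained higher after subtraction (log2 0.61, adjusted p = 0.0353) and was not called in the fit of all 16 hosts (0.108). The proliferation marker Mki67 was 124 to 147 CPM alone and 114 to 163 CPM with EO771 (adjusted p = 0.644), and Cdkn1a, the cell cycle inhibitor p21, was at 28.6 and 28.9 CPM (adjusted p = 0.806). Myc had 707 CPM in EO771 alone, and its rise from 21.4 to 64.4 CPM was not called after subtraction (0.649).

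The fibroblast response was set against that of C2C12 myotubes, whose libraries are all separate from those of MLg, by the interaction of line and co-culture over 16 libraries. Over 18647 genes tested, 343 were called (1.84%), 198 with the larger log2 change in MLg and 145 with the smaller, but only 40 after EO771 carry-over was subtracted in both lines. Of the 40 interferon effectors, 38 were higher in C2C12 with EO771 in the fit of 16 libraries. The median log2 change there was 3.83, against 2.66 in MLg in the same fit and 2.704 in the fit of 8 libraries. The change was smaller in MLg in 7 effectors, Ifi44, Mx1, Mx2, Gbp3, Gbp7, Oas1b and Oasl2, and larger in none. Mx1, an antiviral GTPase, was the clearest: it had 19.3, 9.61, 12.5 and 11.9 CPM in MLg alone and 67.6, 40.9, 54.8 and 35.9 CPM with EO771. In C2C12 it had no count in 3 of 4 libraries alone and 1.70, 4.42, 6.26 and 6.12 CPM with EO771. The log2 difference of the changes was -6.58 ± 0.81 SE (adjusted p = 0.000133, and 0.00214 after subtraction), although the level with EO771 was higher in MLg. With so few C2C12 counts alone the size is imprecise, and it ran from -9.14 to -6.08 when single libraries were left out. Ifi44 and Mx2 were also lower in C2C12 alone (0.164 and 0.272 CPM) than in MLg alone (1.46 and 2.27 CPM), with differences of -2.36 and -2.32. After subtraction 5 of the 7 were still called, Mx2 among them (adjusted p = 0.029), and Ifi44 and Gbp7 were not (0.0603 and 0.0554).

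**Figure D5:**
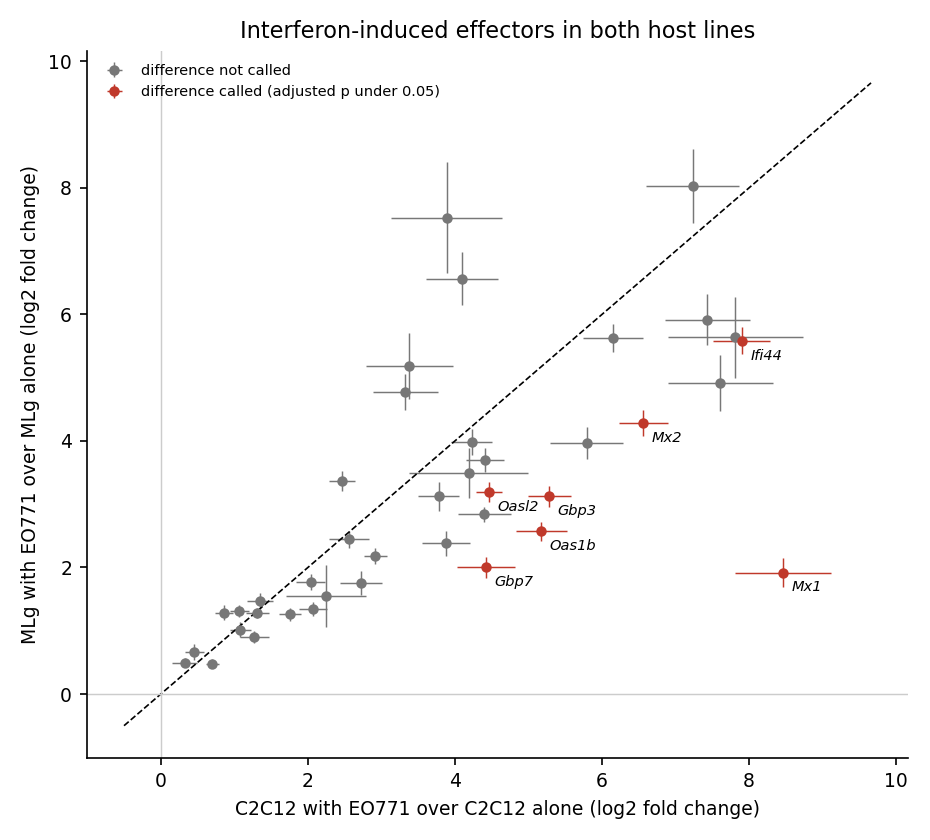
Log2 fold change with EO771 over alone of the 40 interferon effectors in MLg (y axis) against C2C12 (x axis), with bars of 1 standard error and a dashed line of equal change. MLg values are from the fit of 8 libraries and C2C12 values from the fit of 16. The 7 genes whose difference was called, in red, all lie below the line, Mx1 farthest at 1.92 in MLg and 8.46 in C2C12.

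Among the genes named here outside the interferon list, the differences of Hes1, Itga2 and Hsd11b1 were called after subtraction and in all 16 fits that left out a library. Hes1 was 49.7 to 61.2 CPM in C2C12 alone and 38.3 to 59.9 CPM with EO771, without a called change (adjusted p = 0.505), while it rose in MLg from 2.51 CPM. The difference was 2.65 (adjusted p = 0.000125, and 0.00214 after subtraction). Itga2 had at most 0.166 CPM in C2C12 alone and 0.540 to 1.08 CPM with EO771, where EO771 alone had 12.1 CPM, and the difference was -4.45 (adjusted p = 7.14e-05, and 0.0495 after subtraction). The difference for Hsd11b1, an enzyme of glucocorticoid activation, was 2.42 (adjusted p = 0.00491). Cxcl10 rose more in C2C12 (difference -2.80, adjusted p = 0.0392) and Ccl5 more in MLg (2.10, adjusted p = 0.0391). Those for Cxcl10 and Ccl5 were not called after subtraction (0.168 and 0.113), and were called in only 4 and 5 of 16 fits that left out a library. Ifi44, Mx1 and Mx2 kept theirs in all 16.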

How the data were processed

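RNA was measured by poly(A)-selected RNA-seq (TruSeq Stranded mRNA) in 28 libraries of 7 groups, and the counts per gene are those the authors deposited. Per the submitters' processing notes, fastp, STAR 2.7.10a and featureCounts (Subread 2.0.1) were among the tools; these notes give neither the genome build nor the strand setting. The 55536 gene IDs were all found in GENCODE M21 (GRCm38), whose coordinates are used, and 55303 had a symbol of their own.

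Libraries were grouped by their titles. edgeR 4.0.16 in R 4.3.3 was run on the 8 MLg libraries with TMM scaling, filterByExpr (minimum count 10, minimum total 15) and the quasi-likelihood test; p-values were adjusted by Benjamini-Hochberg over all genes tested. CPM are counts over the library total. SE is the log2 change over the square root of F. The interaction with C2C12 used 16 libraries and the same steps. Analyses were tested on simulated data first. The EO771 share is the summed CPM of genes with at least 20 CPM in both EO771 groups and at most 0.2% of that in MLg alone, over the same sum in EO771 with MLg. Total counts of 33790602 to 69688319 per MLg library make counting error small except for genes under 1 CPM. The meaning of the replicate numbers is not given, and libraries were not paired by them. Correlations of same-numbered libraries were -0.252 to 0.174, and those of other pairs -0.28 to 0.27. R3-2 and R7-1 had no library of their number in the other MLg group.

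Genes, gene lists and the carry-over rule were chosen with earlier results of these data known. Named genes were the 12 largest rises and falls among called, non-overlapping genes kept at 5 CPM or more, up to 6 rises and 4 falls per list, and a fixed panel. Mx1, Ifit1bl1, Gbp3, Gbp7, Oas1a, Oas1b, Oas3, Oasl2, Hey1, Heyl, Ifng, Ifna4, Nr1h3, Ch25h, Hsd11b1, Slpi and Ednra were named after their values were seen. Alternatives were other scalings, DESeq2 1.42.0, no filter, halved or omitted even-count libraries, subtraction of carry-over, a replicate block, R6 libraries only, all host libraries, stricter carry-over limits and each library left out. The series' other group, EO771 with C2C12, entered no test, and results for a few genes are not reported here.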

Additional observations from a re-analysis of the deposited data

Results flagged for a closer look

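In 224 groups of 4 libraries checked, 1 library lay far from the other 3 in 26. The cut-off would mark about 1 in 20 independent groups of normally distributed values. These groups share the same 8 libraries, so that rate gives no expected number here. In MLg alone, R3-2 was high in Col8a1 (40.3 CPM against 26.7 to 27.4), Fdps (52.0 against 21.1 to 22.5), H2-K1 (285 against 116 to 133), H2-T23 (45.0 against 35.6 to 36.3), Lif (13.4 against 5.86 to 6.92), Lss (280.3 against 142 to 149), Plagl1 (92.1 against 68.7 to 71.1), Postn (17.3 against 13.0 to 13.4), Psmb9 (18.9 against 12.2 to 13.1), Tap1 (43.3 against 27.8 to 29.5) and Tnfaip2 (64.4 against 50.3 to 52.0). It was low in Itga2 (22.5 against 37.8 to 40.3) and Pdpn (4.32 against 9.54 to 10.3). R5-2 was low in Fgfr2 (176 against 195 to 197) and Slpi (10.5 against 15.0 to 15.5) and high in Hes1 (3.76 against 2.02 to 2.14), and R6-1 was low in Il6 (0.345 against 0.514 to 0.545).

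In MLg with EO771, R7-1 was low in Ifi204 (41.5 CPM against 61.0 to 64.5), Ifih1 (16.2 against 27.9 to 28.9), Irf7 (31.8 against 61.1 to 65.6), Pdpn (9.62 against 13.9 to 14.7) and Zbp1 (37.6 against 67.2 to 72.5). R5-1 was high in Ccl2 (1263 against 845 to 887) and Hes1 (20.1 against 9.44 to 10.9) and low in Fgf10 (54.0 against 65.7 to 65.9). R6-2 was low in Ndrg1 (100.4 against 132 to 138).

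The log2 change with EO771 differed between MLg and C2C12, by the interaction term of edgeR's quasi-likelihood test, in 12 named genes. It was larger in MLg for Ccl5 (2.10), Hes1 (2.65), Hsd11b1 (2.42) and Jun (1.53), and smaller for Cxcl10 (-2.80), Hmgcs1 (-1.16), Ifi44 (-2.36), Itga2 (-4.45), Mx1 (-6.58), Mx2 (-2.32), Psmb9 (-2.63) and Stat2 (-0.97). Adjusted p ran from 7.14e-05 for Itga2 to 0.0479 for Hmgcs1. With EO771 carry-over subtracted from both lines, 5 were still called, Hes1, Hsd11b1, Itga2, Mx1 and Mx2. Leaving out each of the 16 libraries in turn, the call was kept in every fit for Hes1, Hsd11b1, Ifi44, Itga2, Mx1 and Mx2, and in 2 for Hmgcs1.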

How the results depend on the processing

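With all libraries 2472 genes were called, 1628 of them among the genes kept, and 276 list members. Without the 2 libraries of even counts these became 1153, 558 and 155. With the EO771 with MLg profile subtracted they were 781, 730 and 150, and with the EO771 alone profile 882, 783 and 155. In the fit of all 16 host libraries they were 1336, 619 and 141. Leaving out 1 library gave 1569 to 2994, 847 to 2046 and 205 to 329. The replicate block on the R number gave 3448 genes, 342 list members and 361 interactions, all within 1.5 times the main count, and 2560 of the genes kept, above it. What the R number stands for is not given. In the MLg fit R3-2 and R7-1 are each the only library of their number, so with the block they add nothing to the estimated change. The 343 interactions became 726 with DESeq2, 40 with carry-over subtracted, and 248 to 474 leaving out 1 library. The causes of these differences were not tested. The share of called genes that were higher was 67.3%, and 77.8% without the libraries of even counts (897 against 256). Among named genes, Gapdh had a log2 change of -0.19 and -0.36 with the 2 subtractions and Myc of -1.39 with the EO771 alone profile, the only reversals. Of 93 named genes called, 47 kept the call in every alternative, 81 in every fit without 1 library, and 16 lost it with the EO771 with MLg profile subtracted. Other scalings, DESeq2, no filter and halved counts left the 3 counts of the MLg comparison within 1.5 times the main ones. Genes below about 1 CPM, Ifnb1 among them, are limited by depth.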

Other observations

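A set of 3 genes outside the gene lists and outside the rule for named genes was singled out after their values were seen. Hsd11b1, the enzyme that turns inactive into active glucocorticoid, had 1.81, 2.03, 2.79 and 2.01 CPM in MLg alone and 10.6, 14.1, 21.7 and 7.78 CPM with EO771. All co-cultured libraries were higher, a 6.396-fold rise (log2 2.68 ± 0.29 SE, adjusted p = 5.57e-05 in edgeR's quasi-likelihood test), where EO771 alone had 0.0696 CPM. In C2C12 its mean was 158 CPM alone and 193 CPM with EO771 and was not called different (adjusted p = 0.8). Slpi, a secreted inhibitor of leukocyte proteases, had 10.5 to 15.5 CPM alone and 55.5, 80.5, 92.8 and 41.7 CPM with EO771 (log2 2.29 ± 0.23 SE, adjusted p = 3.21e-05), with 55.1 CPM in EO771 alone. Ednra, a receptor for endothelin, had 1.45, 5.34, 5.73 and 6.82 CPM alone and 12.7, 22.5, 30.8 and 9.58 CPM with EO771 (log2 2.01 ± 0.43 SE, adjusted p = 0.00836). In all 3 genes R6-2 was the highest and R7-1 the lowest co-cultured library, and after subtraction of EO771 RNA all 3 were still called (adjusted p = 9.55e-05, 6.47e-05 and 0.0161).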
